A study of Mus musculus with 12 samples.

Results

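Canonical Wnt signalling acts by stabilising beta-catenin, which otherwise is phosphorylated by GSK3 within the Axin and Apc destruction complex and degraded. Stabilised beta-catenin binds the Tcf/Lef factors on DNA and turns on genes that include feedback inhibitors of the pathway itself. In mouse embryonic stem cells (ESCs), the GSK3 inhibitor CHIR99021 of the 2i medium keeps beta-catenin stable, and relief of repression by Tcf7l1 is a known part of how it holds the naive state. The 10 genes described here are the 4 Tcf/Lef factors (Lef1, Tcf7, Tcf7l1 and Tcf7l2), the scaffold gene Axin1 and 5 genes known as beta-catenin targets (Axin2, Sp5, Cdx1, Nkd1 and Rnf43). They were picked by name, through the symbols of the mouse GENCODE annotation, from the 51467 genes of the table. The rule uses no measured value, but the members were chosen with earlier results of these data known.

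Nascent and total RNA had been measured in ESCs and in epiblast-like cells (EpiLCs), each in 3 libraries, which gave 4 groups. ESCs grew in Knockout DMEM with 15% serum, LIF and 2i (the MEK inhibitor PD0325901 with CHIR99021), and EpiLCs were collected about 56 h after LIF and 2i were removed, so that the GSK3 inhibitor, the MEK inhibitor and LIF were withdrawn together and their effects cannot be told apart. Per the study's methods, the cells of the differentiation experiment came from 1 V6.5 reporter line (miR290-mCherry and miR302-GFP), and all cells received 500 µM 4-thiouridine (4sU) for 30 min, the controls included. Labelled RNA was captured for the 4sU libraries, and the total libraries came from RNA depleted of ribosomal RNA. The labels do not say that replicates were separate cultures, so p-values measure the spread between these libraries only.

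Summed counts were 3097693 to 5385644 reads in the 4sU libraries and 9300845 to 21975684 in the total libraries. Cell identity matched the labels, since all 5 naive markers tested fell and all 4 primed epiblast markers rose in EpiLC total RNA. The third ESC replicate stood apart for several of the 10 genes in both of its libraries, and results that rest on it are given with and without those libraries. It is set apart by the levels of these same genes, so p-values and calls without it describe the remaining libraries and are no separate evidence. Levels are CPM (the reads of a gene relative to the total of its library) scaled by the trimmed mean of M values, and CPM per kb of exon is used where genes are compared with each other. These are bulk samples, in which fewer cells of a type and less RNA per cell cannot be told apart.

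Of the 10 genes, 9 passed the expression filter (at least 3 CPM in at least 3 libraries), and Rnf43 did not. A gene was called changed by limma-voom at a Benjamini-Hochberg adjusted p under 0.05 over all 14731 genes tested with an absolute log2 fold change over 1. In total RNA 3 of the 9 were called, of which Nkd1 and Tcf7l1 rose and Cdx1 fell, against 27.6% of all genes. In nascent RNA 1 of the 9 was called, the fall of Cdx1, against 25.5% of all genes. In mRNA stability, the total change minus the nascent change, 1 of the 9 was called, the rise of Nkd1, against 1.54% of all genes. In stability 1.24% of genes were called higher and 0.305% lower. By adjusted p alone, without the fold threshold, 5 of the 9 passed in total RNA (4 higher, 1 lower) against 63.5% of all genes (31.4% higher, 32.1% lower). In nascent RNA 5 passed (3 higher, 2 lower) against 52.5% (23.7% and 28.8%), and in stability only Nkd1 against 4.6% (2.72% and 1.88%). Without both libraries of the third ESC replicate, 5 of the 9 were called in total RNA, 1 in nascent RNA and 2 in stability. That fit called 779 of 14309 genes in stability, and the shares of all genes given above do not apply to it. Its calls over all genes in total and nascent RNA are not given here, so those member counts stand without a share beside them. Cdx1 passed the filter through its ESC libraries alone. The median log2 change of the 9 genes was 0.77 in total RNA, 0.40 in nascent RNA and 0.25 in stability, beside 0.02, -0.09 and 0.11 over all genes.

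**Figure D1:**
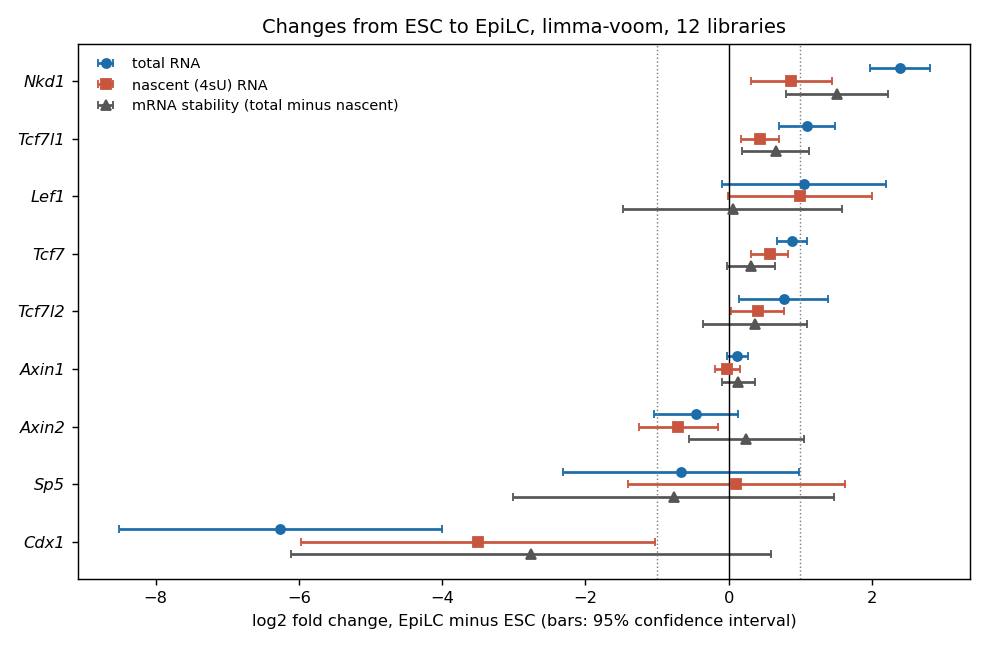
Log2 fold change from ESC to EpiLC (x axis) of the 9 genes tested, in total RNA (circles), nascent RNA (squares) and mRNA stability (triangles), with 95% confidence intervals from limma-voom over 12 libraries; dotted lines mark the fold threshold of 1. Nkd1 lies at the top with 2.39 in total RNA, Cdx1 at the bottom with -6.26, and the intervals of Lef1, Sp5 and Cdx1 are the widest.

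A short sequence is shown first because Sp5 was the only 1 of the 8 members searched whose promoter held the Tcf/Lef core motif. RefSeq promoters (GRCm38.p6, 250 bases before to 50 bases after the start) were searched on both strands for CTTTGAT and CTTTGAA. The search covered 14 promoters of 8 members and none of Axin1 or Cdx1, whose promoters were therefore not examined. In capitals is the match, which begins 104 bases before the start of Sp5. The whole stretch shown, with its flanking bases, lies at chr2:70474809-70474835 on the plus strand.
Sp5: gcaaggccccCTTTGATcaggaaaatc
A match was present in 8.65% of the 32851 promoters searched, beside 1 of the 14 here. The median GC content of the members' promoters searched was 61.3%, and of all promoters searched 52.7%.

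The Tcf/Lef factors bind the same DNA element. Tcf7l1 (also known as Tcf3) acts mainly as a repressor in ESCs. Tcf7l1 (chr6:72626378-72789254, minus strand, build mm10) had a total RNA level of 5.91, 5.74 and 10.2 CPM in ESC replicates 1 to 3 and of 13.5, 14.8 and 14.2 CPM in EpiLCs. All EpiLC libraries lay above all ESC libraries, an order that 33.5% of all genes shared. It rose by a log2 fold change of 1.09 ± 0.18 (SE, n = 3 per group, adjusted p = 9.94e-05, limma-voom), 2.13-fold. The call stood close to the fold threshold and was lost when ESC total replicate 1 (0.97) or 2 (0.94) was left out and with DESeq2 (0.98). Nascent Tcf7l1 was 77.7, 85.9 and 98.7 CPM in ESCs and 121, 111 and 120 CPM in EpiLCs. The groups did not overlap, as for 26.6% of genes with EpiLCs above, and the log2 difference of 0.43 ± 0.12 (adjusted p = 0.0088) was under the fold threshold. Its stability difference was 0.66 ± 0.22 (adjusted p = 0.0962), not called, and 0.78 ± 0.15 (adjusted p = 0.00163) without the third ESC replicate, still under the fold threshold.

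Tcf7 (also known as Tcf1), mainly an activating factor, was the most abundant of the 4 in total RNA per kb. Its total RNA was 25.0, 21.5 and 26.1 CPM in ESCs and 44.1, 43.7 and 44.8 CPM in EpiLCs, and nascent RNA was 33.3, 39.5 and 32.5 CPM in ESCs and 56.5, 48.5 and 53.4 CPM in EpiLCs. Neither assay's groups overlapped, with EpiLCs above as for 33.5% of genes in total RNA and 26.6% in nascent RNA. The log2 difference was 0.89 ± 0.10 in total RNA (adjusted p = 1.62e-06) and 0.57 ± 0.12 in nascent RNA (adjusted p = 0.00104), both below the fold threshold and so not called.

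Tcf7l2 was 2.72, 2.42 and 5.90 CPM in ESC total RNA and 7.03, 4.64 and 4.67 CPM in EpiLC total RNA. The groups overlapped through the third ESC replicate, which lay above EpiLC replicates 2 and 3. The difference was 0.77 ± 0.29 (adjusted p = 0.0318), not called. Without both libraries of the third ESC replicate it was 1.04 ± 0.25 (adjusted p = 0.000884) and called. In nascent RNA Tcf7l2 was 37.6 to 49.5 CPM in ESCs and 52.6 to 61.3 CPM in EpiLCs, with a log2 difference of 0.40 (adjusted p = 0.060).

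Lef1 is both a Tcf/Lef factor and a beta-catenin target. In total RNA it was 4.64, 4.78 and 1.47 CPM in ESCs and 7.36, 7.30 and 7.85 CPM in EpiLCs. In nascent RNA it was 31.5, 18.6 and 3.80 CPM in ESCs and 30.9, 29.3 and 27.0 CPM in EpiLCs. EpiLCs lay above in total RNA, as for 33.5% of genes, but nascent groups overlapped. The total difference was 1.05 ± 0.54 (adjusted p = 0.101, 95% interval -0.10 to 2.20), not called, and 0.66 ± 0.20 (adjusted p = 0.0059) without the third ESC replicate. The nascent difference was 1.00 ± 0.47 (adjusted p = 0.0903), and 0.26 ± 0.17 (adjusted p = 0.181) without that replicate, so the nascent value depended on that replicate. In total RNA Lef1 was called when ESC 4sU replicate 1 (1.04, adjusted p = 0.0446) or 3 (1.03, adjusted p = 0.016) was left out, and in nascent RNA when ESC 4sU replicate 1 was (1.54, adjusted p = 0.0199). With the 6 total libraries alone it was called in total RNA as well (1.08 ± 0.35, adjusted p = 0.0263).

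Within the 4 factors' summed reads per kb, mean shares in EpiLCs minus those in ESCs lay between -2.49 and 1.74 percentage points. In total RNA Tcf7 made up 69.7% ± 2.2 (SD, n = 3) in ESCs and 68.7% ± 0.32 in EpiLCs, and Tcf7l1 made up 17.6% ± 4.4 and 18.8% ± 0.92. In nascent RNA Tcf7l1 made up the largest share, 52.6% ± 8.0 in ESCs and 50.2% ± 1.1 in EpiLCs, and Tcf7 24.8% ± 2.5 and 26.5% ± 0.65. No difference in share passed the test, which could not pass at this size (2-sided exact permutation test over 3 against 3 libraries, smallest possible p of 0.1, p from 0.4 to 1, adjusted over 8 comparisons 0.914 to 1). ESC replicate 3 stood apart from replicates 1 and 2, with Tcf7l1 at 61.3% of nascent RNA against 45.6% and 51.0%. In that replicate Lef1 made up 2.87% of total RNA and 2.07% of nascent RNA, against 9.72% to 16.3% of nascent RNA in ESC replicates 1 and 2.

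**Figure D2:**
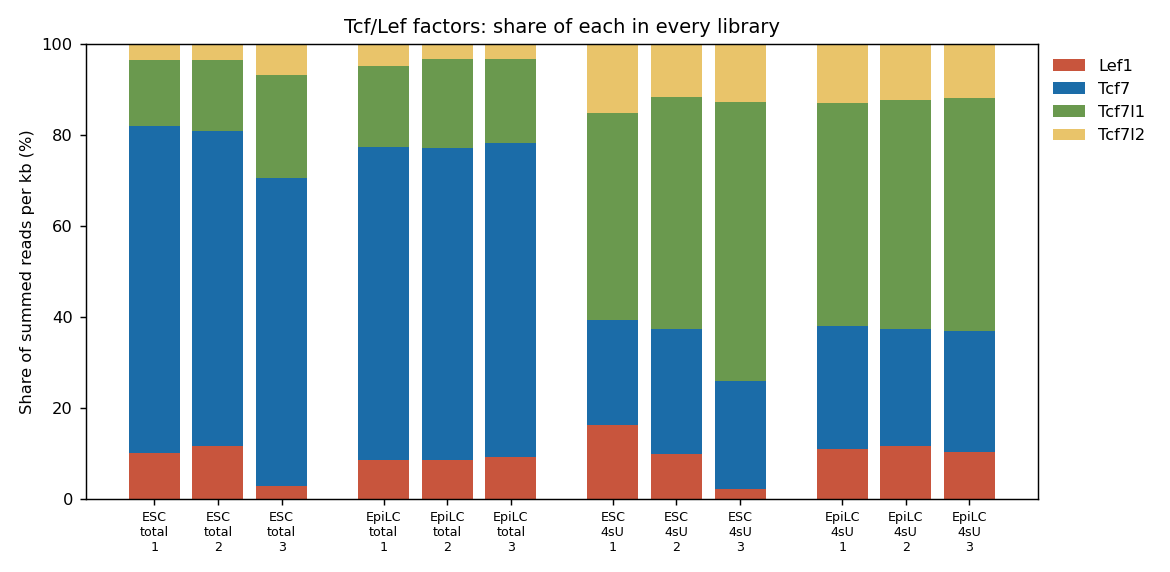
Share of each Tcf/Lef factor in the summed reads per kb of the 4 factors (y axis, percent) in each of the 12 libraries (x axis: cell type, assay and replicate number). Tcf7 takes the largest share in total RNA and Tcf7l1 in nascent RNA, in both cell types; the Lef1 share is smallest in both libraries of the third ESC replicate.

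The factors differed in their ratio of total to nascent RNA, here called relative stability. Tcf7l1 had a mean log2 total over 4sU of -3.59 ± 0.31 (SD, n = 3) in ESCs and -3.03 ± 0.13 in EpiLCs, which put it at percentile 3.55 and 3.68 of genes. Tcf7l2 lay at percentile 3.87 in ESCs and 1.84 in EpiLCs, so both were among the least stable transcripts by this ratio, whereas Tcf7 lay at 35.0 and 38.2. The 4sU RNA includes unspliced RNA, whose exon reads are counted too, and the part of this in the ratio was not tested.

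Axin1, the constitutive scaffold of the destruction complex, varied least. It was 74.8, 73.3 and 72.4 CPM in ESC total RNA and 77.2, 79.9 and 82.3 CPM in EpiLC total RNA. EpiLCs lay above without overlap, as for 33.5% of genes, but the log2 difference was 0.12 ± 0.07 (adjusted p = 0.145, 95% interval -0.03 to 0.27). The nascent difference was -0.02 (95% interval -0.20 to 0.16), and its sign depended on the scaling.

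Axin2, the feedback-induced counterpart of Axin1, was lower in every EpiLC library than in ESC replicates 1 and 2, in both assays, while the third ESC replicate lay lower than those. Its total RNA (chr11:108920349-108950783) was 44.1, 39.5 and 21.3 CPM in ESCs and 29.2, 21.8 and 25.1 CPM in EpiLCs. Its nascent RNA was 153, 164 and 90.0 CPM in ESCs and 101, 72.1 and 74.8 CPM in EpiLCs. The groups overlapped in both assays, in each case through the third ESC replicate. The total difference was -0.46 ± 0.27 (adjusted p = 0.158) and the nascent difference -0.70 ± 0.26 (adjusted p = 0.0327), neither called. Leaving out the third ESC replicate removes the libraries behind the overlap, which by itself lowers the spread and the p-values. Without it the total and nascent differences were -0.74 ± 0.12 (adjusted p = 2.19e-05) and -0.98 ± 0.12 (adjusted p = 6.53e-07), which still missed the fold threshold.

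Sp5 encodes a zinc-finger repressor that lies directly downstream of beta-catenin. Total Sp5 RNA (chr2:70474923-70477729) was 6.90, 4.43 and 0.69 CPM in ESCs and 3.01, 1.42 and 2.39 CPM in EpiLCs. The lowest of these 6 libraries was the third ESC replicate, with 7 reads. The difference was -0.66 ± 0.77 (adjusted p = 0.467, 95% interval -2.31 to 0.98), not called, and -1.34 ± 0.38 (adjusted p = 0.0038) without both third-replicate ESC libraries, where it was called. Nascent Sp5 was 11.9, 11.3 and 2.98 CPM in ESCs and 18.6, 6.15 and 5.34 CPM in EpiLCs, a spread of over 3-fold within each cell type. Its nascent difference was 0.11 (adjusted p = 0.915), and turned to -0.43 (adjusted p = 0.313) without the third ESC replicate.

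Cdx1, a caudal-type homeobox gene of the posterior body axis, had the largest difference of the 10. Its total RNA was 34.6, 27.9 and 13.1 CPM in ESCs and 0.67, 0.09 and 0.30 CPM in EpiLCs, from 598, 555 and 133 reads against 6, 1 and 3. Every EpiLC library lay below every ESC library, as for 35.1% of genes. Summed reads gave a ratio of 80.4 (95% interval 43.6 to 168, counting error only), and the fit gave a log2 fold change of -6.26 ± 1.05 (adjusted p = 0.000114). Nascent Cdx1 was 9.41, 11.1 and 4.07 CPM in ESCs and 0.94, 0.64 and 0.30 CPM in EpiLCs, from 123 and 8 reads in all. The EpiLC libraries again lay below without overlap, as for 34.1% of genes. It fell by 3.50 ± 1.15 on the log2 scale (adjusted p = 0.020), and the ratio of summed reads was 13.4 (6.58 to 31.7). That call was lost when ESC 4sU replicate 2 or any 1 of the 3 EpiLC 4sU libraries was left out (adjusted p = 0.0526 to 0.0743). The stability difference was -2.76 ± 1.56 (adjusted p = 0.318), not called, and -2.73 ± 0.72 (adjusted p = 0.0126) without the third ESC replicate, where it was called, as it was with DESeq2 (-2.61, adjusted p = 0.0481), with sample quality weights (-3.06, adjusted p = 0.0249) and without ESC total replicate 3 alone (-3.10, adjusted p = 0.0314). With the replicate block it was called too (-2.74, adjusted p = 0.0172 by number, and -2.57, adjusted p = 0.020 by cell type and number). By the ratio of total to nascent RNA, Cdx1 lay at percentile 89.2 of genes in ESCs and 29.9 in EpiLCs, the latter from 10 total and 8 nascent reads.

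Nkd1, a Naked cuticle protein that inhibits Dishevelled and is induced by Wnt signals, moved the other way. Its total RNA (chr8:88521354-88594884) was 2.03, 1.61 and 2.56 CPM in ESCs and 9.26, 10.4 and 11.2 CPM in EpiLCs. It rose by 2.39 ± 0.20 on the log2 scale (adjusted p = 8.32e-08), 5.24-fold, in all 12 fits that left out 1 library. Nascent Nkd1 was 4.70, 3.58 and 4.34 CPM in ESCs and 8.48, 8.48 and 5.93 CPM in EpiLCs, with a log2 difference of 0.88 ± 0.27 (adjusted p = 0.0125), not called, and 1.09 (adjusted p = 0.00562), called, without EpiLC 4sU replicate 3. Its nascent counts were low, 59 reads in ESCs and 96 in EpiLCs.

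The stability of Nkd1 differed between cell types by 1.51 ± 0.33 on the log2 scale (adjusted p = 0.0215), 2.85-fold. The log2 ratio of total to nascent RNA was -1.13, -1.05 and -0.71 in the 3 ESC replicates and 0.12, 0.29 and 0.89 in the 3 EpiLC replicates. No ESC value reached the lowest EpiLC value, an order whose share over all genes was not computed for stability. In total and nascent RNA, EpiLCs lay above without overlap for 33.5% and 26.6% of genes, so the order is a description only. The call was made in 6 of 12 fits with 1 library left out, and was lost without ESC total replicate 1 or 2, EpiLC 4sU replicate 1 or 3, or EpiLC total replicate 2 or 3 (adjusted p = 0.0521 to 0.0655), and with no expression filter (1.40, adjusted p = 0.064). The summed level of 7 fibroblast markers was 3.88 to 4.73 CPM in ESC total RNA and 14.6 to 18.9 CPM in EpiLC total RNA. Of the 7, 2 to 4 were at 0 in each ESC total library and 1 to 2 in each EpiLC total library. Of 3 tested, Col1a2 and Dcn rose, and both passed the filter through their EpiLC libraries alone. The part of these markers in the Nkd1 stability result was not tested.

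Rnf43, a ubiquitin ligase that removes Frizzled receptors from the surface, was the rarest per kb in ESCs. It was 0.58, 1.21 and 0.49 CPM in ESC total RNA and 1.90, 0.57 and 1.49 CPM in EpiLC total RNA. It had 39 and 38 total reads in all, and the groups overlapped in both assays. With no expression filter its total difference was 0.57 ± 0.50 (adjusted p = 0.395).

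**Figure D3:**
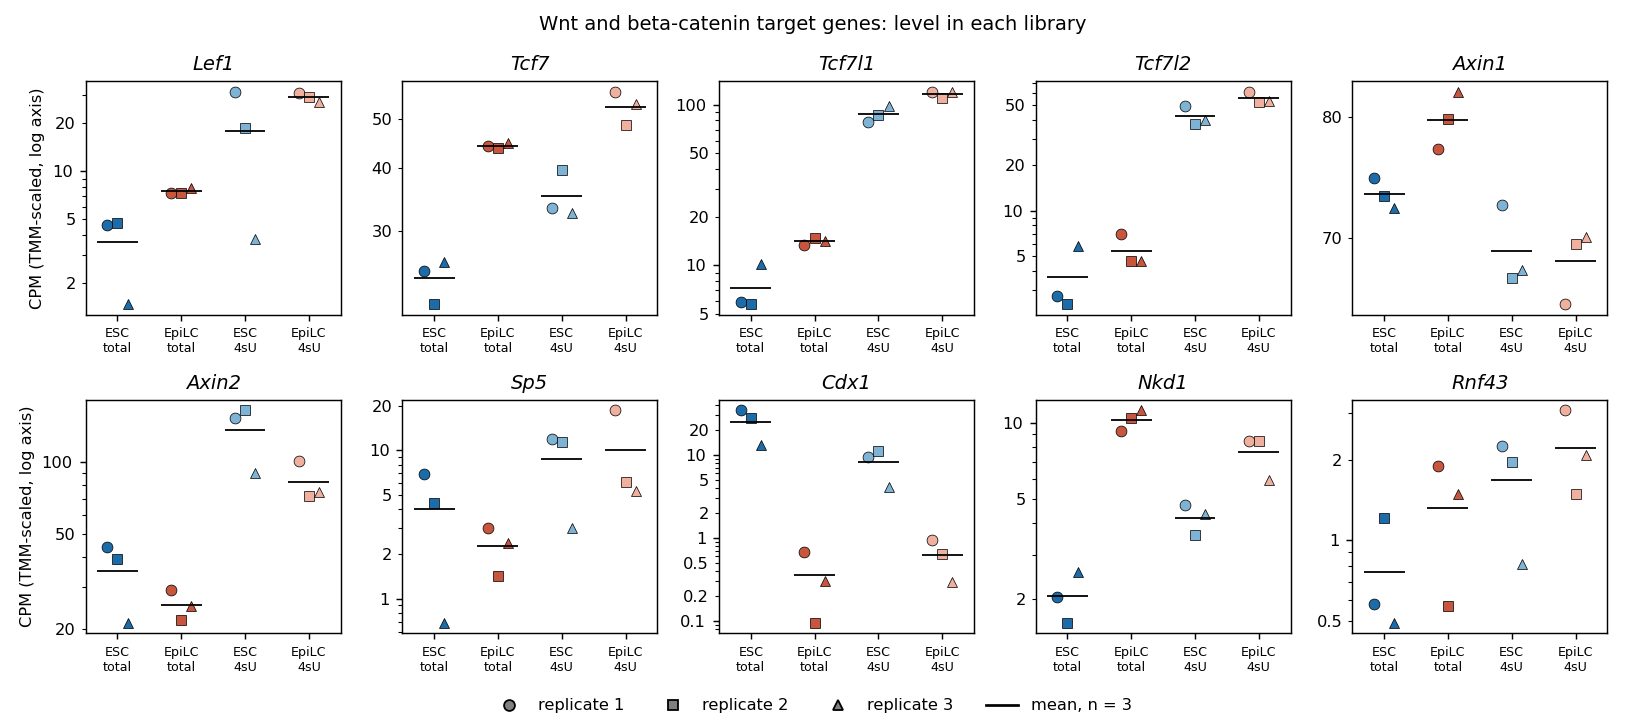
Level of each of the 10 genes in each library (y axis, TMM-scaled CPM, log axis) by cell type and assay (x axis), with one symbol per replicate and a bar at the mean of 3. For Lef1, Axin2, Sp5 and Cdx1 the triangle of the third ESC replicate lies under the other ESC points in both assays. Tcf7, Tcf7l1 and Nkd1 (EpiLCs above) and Cdx1 (EpiLCs below) separate the cell types without overlap in both assays. Of all genes, 33.5% had EpiLCs above and 35.1% below in total RNA, and 26.6% and 34.1% in nascent RNA. The share that did so in both assays was not computed.

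The order of levels per kb differed between assays. In ESC total RNA it ran Axin1 (19.5 CPM per kb ± 0.33, SD, n = 3), Cdx1, Tcf7, Axin2, Tcf7l1, Sp5, Lef1, Tcf7l2, Nkd1 and Rnf43 (0.17 ± 0.09). Only Axin2 and Tcf7l1, and Nkd1 and Rnf43, were neighbours whose ranges did not overlap. In EpiLC total RNA Axin1 was again first (21.1 ± 0.67), followed by Tcf7 (16.8 ± 0.22) and Axin2 (5.95 ± 0.88), and Cdx1 was last (0.20 ± 0.17). In nascent RNA Axin2 was highest in ESCs (31.8 ± 9.4) with a range that overlapped that of Tcf7l1 (28.3 ± 3.4), and Tcf7l1 was highest in EpiLCs (38.0 ± 1.8), above every other member without overlap.

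Several of the 10 genes were low together in both libraries of the third ESC replicate. This comparison was made after the values were seen, and has no test. Against the mean of replicates 1 and 2, that replicate held 0.122 of the Sp5 level in total RNA and 0.258 in nascent RNA. The values were 0.313 and 0.152 for Lef1, 0.511 and 0.568 for Axin2, and 0.418 and 0.397 for Cdx1. These 4 of the 9 tested members lay below the 5th percentile of genes in both assays, as did 264 (1.79%) of all 14731 genes.

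Rnf43, which was not tested, stood at 0.550 in total and 0.386 in nascent RNA, at percentiles 6.12 and 1.95, from 5 and 3 reads. Of the 5 target genes Nkd1 was not low there, at 1.40 in total and 1.05 in nascent RNA. Tcf7 stood at 1.12 and 0.893, and Axin1 at 0.977 and 0.968. Tcf7l1 stood at 1.76 and 1.21 and Tcf7l2 at 2.30 and 0.910, so both lay above the other ESC libraries in total RNA, and Tcf7l1 also in nascent RNA. Among 52 other pathway genes tested, 5 lay below the 5th percentile in both assays (Fzd7, Fzd10, T, Myc and Sp8, named here after their values were seen). T, a mesoderm factor known as a beta-catenin target, stood at 0.0817 and 0, from 2 and 0 reads. Summed naive markers of the 3 ESC total libraries were 978, 1021 and 1017 CPM, and of the 3 ESC 4sU libraries 2412, 2654 and 2320 CPM, the third replicate being lowest in the latter only. The sum of 6 primitive streak markers, T included, was 28.2, 25.0 and 17.3 CPM in the 3 ESC total libraries. Eomes made up most of it (22.1, 19.2 and 9.54 CPM), whereas Gsc was highest in the third replicate (2.84, 2.67 and 6.78 CPM).

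**Figure D4:**
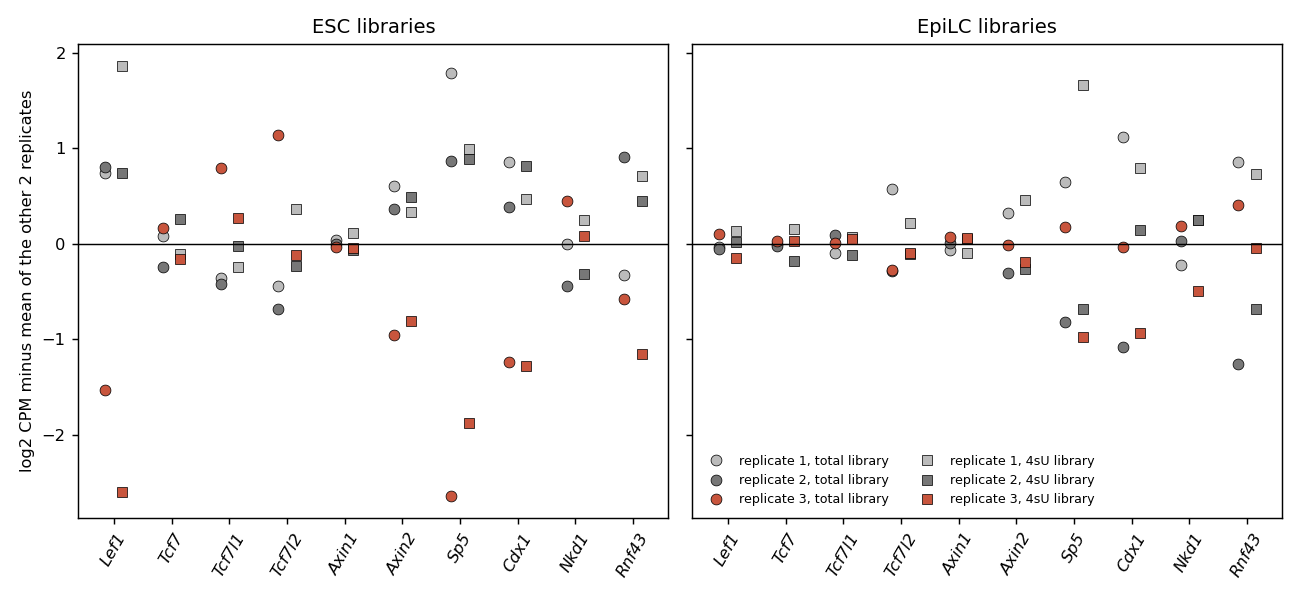
Deviation of each library from the mean of the other 2 replicates of its group (y axis, log2 CPM) for the 10 genes (x axis), with ESC libraries at left and EpiLC libraries at right, circles for total RNA, squares for 4sU RNA, and the third replicate in red. In ESCs the red points of Lef1, Axin2, Sp5 and Cdx1 lie below 0 in both assays, while in EpiLCs the first replicate of Sp5 lies highest.

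Genes of the pathway outside the 10 were counted by list. In total RNA 22 of 52 tested were called (14 higher, 8 lower), against 27.6% of all genes, and in nascent RNA 17 (9 higher, 8 lower), against 25.5%. The median log2 change of the 52 was 0.24 in total RNA and 0.11 in nascent RNA, beside 0.02 and -0.09 over all genes.

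Among 17 receptor and Dishevelled genes, 6 rose and 1 fell in total RNA. Fzd2 rose by 2.70 ± 0.13 (adjusted p = 4.52e-10), Fzd6 rose by 2.29 ± 0.18 and Fzd5 fell by 2.24 ± 0.13 on the log2 scale, which are Frizzled receptors of Wnt ligands. Of 9 destruction complex genes only Apc2, a homologue of Apc, was called in total RNA (1.85 ± 0.28, adjusted p = 4.06e-05), and Ctnnb1, beta-catenin itself, differed by -0.10 ± 0.07 (adjusted p = 0.222). Among 11 nuclear cofactors, Bcl9 (1.66 ± 0.16) and Bcl9l (1.59 ± 0.24), which bridge beta-catenin to Pygopus proteins, rose, and the Groucho-related Aes fell by 2.68 ± 0.11.

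Other reported targets moved in both directions. Of 11 tested, Cdx4 (5.27 ± 0.68), a caudal gene like Cdx1, and Myc (3.33 ± 0.35) rose with 3 further genes, whereas Notum, a secreted enzyme that inactivates Wnt ligands, fell by 4.77 ± 0.37 with 1 other. Cdx4 passed the filter through its EpiLC libraries alone, with 7 total RNA reads in ESCs and 154 in EpiLCs. Notum passed it through its ESC libraries alone, with 1454 and 36 reads. The 4 genes that Tcf7l1 is known to hold down in ESCs were all called lower in total RNA, against 11.2% of all genes. They included Tfcp2l1 (-6.34 ± 0.20), Esrrb (-5.95 ± 0.24) and Klf2 (-5.72 ± 0.25). All 4 are also naive pluripotency genes, and the 5 naive markers fell as well. The part of Tcf7l1 in their fall was not tested. In stability, 3 of 52 pathway genes were called, all higher in EpiLCs, against 1.54% of all genes, and 1 was called under median-of-ratios scaling, TMM within each assay, either other expression filter and edgeR. They were Nkd2, the paralogue of Nkd1 (1.87 ± 0.35, adjusted p = 0.0122), Bcl9 (1.00 ± 0.20, adjusted p = 0.0157) and Bcl9l (1.17 ± 0.31, adjusted p = 0.0482).

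The genes most like Axin2 over the 12 libraries by log2 CPM were Nfkbia (Pearson r 0.984), Trmo (0.984), Mir291b (0.984), Rint1 (0.984) and Nabp1 (0.978), and among those most like Tcf7l1 were Garem1 (0.997), Cherp (0.996), Gm45853 (0.996) and Son (0.995). These are descriptions, in which the shared difference between 4sU and total libraries takes part.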

How the data were processed

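Raw counts of reads for each gene in 12 libraries were deposited as 1 table. Per the study's methods, the authors trimmed single-end reads with cutadapt 1.14, aligned them to mm10 with STAR 2.5.3a keeping unique alignments, and counted strand-specific exon reads of GENCODE M14 genes with featureCounts 1.5.3, without ribosomal RNA genes. Unique alignment makes genes with near-identical copies uncertain, and none of the 10 genes shared exons with a neighbour on its strand. Spike-in entries had 0 reads and gave no absolute scale. Symbols came from GENCODE M21.

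After the study's design, limma-voom (R 4.3.3 with limma 3.58.1 and, for TMM, edgeR 4.0.16) fitted a no-intercept model of the 4 groups to the 12 libraries, on genes that reached 3 CPM in 3 or more of them. Adjusted p-values are Benjamini-Hochberg over all genes kept, and a call also needs an absolute log2 fold change over 1. Levels are TMM-scaled CPM, and log2 ratios used a prior count of 2. Each extract was divided between the assays, and relative stability pairs libraries by number, although the labels do not say that a number marks 1 extract. Counting intervals and floors cover counting error only, because reads carried no molecular identifiers.

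Members and lists were chosen with earlier results of these data known. All 10 members are named. In each pathway list at most the 3 called genes of largest total change, and every gene called for stability, are named, and exceptions are marked. For Axin2 and Tcf7l1 the genes of highest Pearson r over the libraries are named, of which 1 is not reported here. Alternatives covered scaling, filters, edgeR, DESeq2 1.42.0, quality weights, thresholds, blocks and libraries left out. The model was tested on simulated data. Python 3.11.15 and pandas 2.3.3 were used.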

Additional observations from a re-analysis of the deposited data

Results flagged for a closer look

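The change of Nkd1 between cell types was larger in total than in nascent RNA, by 1.51 on the log2 scale (SE 0.33, adjusted p = 0.0215, limma-voom interaction), which is the test of that difference itself. Nkd1 was the only one of the 9 genes tested to pass. The nascent values rest on 59 reads in ESCs and 96 in EpiLCs, and 6 of 12 fits with a library left out kept the call.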

How the results depend on the processing

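The counts of members called were 3 in total RNA, 1 in nascent RNA and 1 in stability. With adjusted p alone they were 5, 5 and 1. With both ESC replicate 3 libraries left out they were 5, 1 and 2. Stability members were 0 with no expression filter, and 2 with DESeq2, sample quality weights, the replicate block by number or by culture, which add Cdx1. With 1 library left out the members called ranged from 2 to 5 in total RNA, from 0 to 2 in nascent RNA and from 0 to 2 in stability.

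Over all genes, no expression filter gave 7107 calls in total RNA and 5723 in nascent RNA, and adjusted p alone 9353, 7731 and 678 in total RNA, nascent RNA and stability. Stability calls were 846 with quality weights, 354 with the replicate block by number, 528 with the block by culture and 779 without ESC replicate 3, and 69 to 658 with 1 library left out, against 227. Pathway calls with adjusted p alone were 41, 33 and 6. In stability, 1 pathway gene was called under median-of-ratios scaling, TMM within each assay, either other filter and edgeR, 5 with the block by culture and 1 to 4 with 1 library left out.

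Leaving out both ESC replicate 3 libraries with no expression filter, chosen after seeing the data, gave 7629, 6026 and 876 calls over all genes and 2 stability members. There Axin1 was -0.09 in total RNA, 0.03 in nascent RNA and -0.12 in stability, Sp5 was -0.35 in nascent RNA, Axin2 was -0.03 in stability, and Rnf43 was 0.25 in total RNA (adjusted p = 0.681).

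Small differences turned sign. Nascent Axin1 (-0.02) was 0.04 under median-of-ratios scaling, TMM within each assay and DESeq2, 0 with library totals alone and quality weights, 0.02 with no filter, 0.05 with the libraries of the assay alone, and -0.03 to 0.09 with 1 library left out. Nascent Sp5 (0.11) was -0.28 with quality weights, -0.43 without ESC replicate 3, and -0.40 to 0.45 with 1 library left out. Stability of Lef1 (0.05) was -0.03 under median-of-ratios scaling, -0.07 with no filter, -0.02 with quality weights and -0.50 to 0.68 with 1 library left out, and that of Axin2 (0.25) was -0.03 to 0.41. With 1 library left out, the EpiLC minus ESC shares in percentage points ranged in total RNA from -2.03 to 2.31 for Lef1, -1.92 to 0.257 for Tcf7, -0.421 to 3.65 for Tcf7l1 and -1.38 to 0.295 for Tcf7l2, and in nascent RNA from -2.06 to 5.03 for Lef1, 0.841 to 3.15 for Tcf7, -6.01 to 1.85 for Tcf7l1 and -1.61 to 0.141 for Tcf7l2.

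Replicate numbers correlated between 4sU and total libraries at 0.21, 0.37 and 0.46 in ESCs and 0.09, 0.05 and 0.02 in EpiLCs, so the numbers may pair the ESC libraries, and in EpiLCs no pairing was seen. The design without a block was kept. Among the members the block by number added the stability call of Cdx1 (-2.74, adjusted p = 0.0172) and changed no other. The 4sU depth limits Nkd1, Cdx1, Sp5 and Rnf43 most.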
